A study of Mus musculus with 50 samples.

Results

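The comparison described here set 3 E13.5 mouse whole brain libraries labelled ird1 against 3 labelled wt for the ird1 comparison, across all 11708 genes of the deposited count table. These 6 libraries belong to 18 RNA libraries, and the series holds 50 samples in all, of which the chromatin samples were not analysed here. The genotype name ird1 was read as 1 mutant and 1 wild-type copy of Gtf2ird1, because other libraries of the same cross are labelled ird1/ird1. The labels do not describe the DNA change of the allele. All of the embryos were of the strain written FVB/ANTJ in the labels, their sex is not given, and no treatment is named for any group. The ird1/ird1 libraries (3) entered the same fit and are shown beside the comparison, and the separate gtf2i cross (3 wt and 3 gtf2i libraries, read as 1 mutant copy of Gtf2i) is used for the family genes. No label says that each library came from its own embryo, so the p-values measure the spread between these libraries only.

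Gtf2ird1 encodes a transcription factor of the TFII-I family, whose members carry repeated helix-loop-helix-like I-repeats that contact DNA and partner proteins. Gtf2i, which encodes TFII-I itself, lies beside it in the chromosome segment that is deleted on 1 chromosome in Williams syndrome, a neurodevelopmental disorder. The family member Gtf2ird2 lies close by. The protein GTF2IRD1 has been reported to bind the letters GGATTA upstream of its own gene and to repress it, so that loss of the protein can leave more of the gene's RNA. In the embryonic brain at this stage radial glia are dividing, the first neurons are being added, and blood vessels and microglial precursors are entering the tissue.

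The region just upstream of Gtf2ird1 is shown because Gtf2ird1 RNA is the measurement the comparison turns on. The 250 bases before its annotated start, from RefSeq on GRCm38.p6, lie at chr5:134456717-134456966 and are given on the minus strand, which is the strand of the gene. Capitals mark GGATTA and its reverse complement TAATCC, searched on both strands.
Gtf2ird1 upstream: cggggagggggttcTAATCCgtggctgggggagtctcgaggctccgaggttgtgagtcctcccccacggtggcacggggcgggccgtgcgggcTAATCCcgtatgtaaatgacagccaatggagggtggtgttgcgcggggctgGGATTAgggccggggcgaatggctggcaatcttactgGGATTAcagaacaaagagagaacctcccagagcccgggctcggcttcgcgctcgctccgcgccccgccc

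The window held 4 matches, none overlapping another, with their first bases 236, 157, 106 and 69 bases before the start. Of 32851 windows of the same length in the RefSeq table, 6.25% held at least 1 match, and 2 windows, that of Gtf2ird1 among them, held as many as 4. The windows of Gtf2i and Gtf2ird2 held 0. A match is a description of the letters, and no binding was measured in the data used here.

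Total counts of the compared libraries were between 3239117 and 7183210, and the counts of 1 library, wt replicate 2, stood apart from the rest. It had the lowest total, its score on the first principal component was 37.2 against -13.5 to 10.9 in the other 8 libraries of the cross, and that component held 48.3% of the variance. Counts of Gm23935, listed with a transcript of 57 bases, took 2.82% of its total against 0.601% to 2.02% elsewhere. The 7 genes encoded on the mitochondrial genome summed to 2330 CPM (counts divided by the scaled library total) in it against 5533 to 6855 CPM elsewhere. Its title begins with the number 11902, which 1 library of each genotype shares, while the other 2 of each genotype begin with 11610. The labels do not say what the number stands for. Values without it are given beside the results below where they differ most. To a lesser degree ird1 replicate 2 stood apart too. Its limma-voom quality weight was 0.348, against 0.207 in wt replicate 2 and 1.06 to 1.79 in the other 7. Its counts differed from those of the other ird1 libraries with a chi-square per degree of freedom of 8.49 and 7.67, against 3.60 between those 2. With all libraries 353 genes had an unadjusted p under 0.05, and with 1 of the 9 left out between 214 and 694 did (637 without ird1 replicate 2). The depth left a counting error of 9.28% at the median gene of wt replicate 2 and of 5.92% to 6.97% in the other 5.

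The clearest difference between ird1 and wt brains was in Gtf2ird1 itself (ENSMUSG00000023079). Its level was 90.4, 115 and 90.4 CPM in the wt libraries and 148, 154 and 147 CPM in the ird1 libraries. All 3 ird1 libraries lay above all 3 wt libraries, and the ird1 libraries lay closer together. The means were 98.7 ± 14.4 CPM in wt and 149.8 ± 3.74 CPM in ird1 (SD, n = 3 each), so that ird1 brains held 152% of the wt level. The log2 fold change was 0.61 (SE 0.0975, 95% interval 0.41 to 0.82), which is 1.33-fold to 1.77-fold. An exact two-sided permutation test gave p = 0.1, the smallest that 3 libraries against 3 allow. In edgeR's quasi-likelihood test the unadjusted p was 1.37e-05, and the p adjusted over all 11708 genes was 0.160, which does not pass 0.05.

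Whether Gtf2ird1 passed depended on the fit used and on wt replicate 2, which had the highest Gtf2ird1 level of the wt group. Without it the log2 fold change was 0.72 and the edgeR adjusted p was 0.000364. Within the libraries numbered 11610 it was 0.73 (adjusted p 0.0104 in edgeR), and between the only wt and ird1 libraries numbered 11902 it was 0.36, with no test. DESeq2 on the same 9 libraries gave an adjusted p of 0.000218, and an edgeR fit that took its spread from all 18 libraries gave 0.0207. With edgeR on only the 6 libraries compared it was 0.999, and over all alternatives it lay between 4.78e-05 and 0.999.

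The ird1/ird1 libraries, at 218, 222 and 226 CPM (222 ± 4.07, SD, n = 3), lay above every ird1 library. The midpoint between the wt and ird1/ird1 means is 160.3 CPM, and the ird1 mean was at 149.8 CPM. The step from ird1 to ird1/ird1 was 0.57 on the log2 scale (SE 0.0934, with 0.242 as the edgeR adjusted p), and the step from wt to ird1/ird1 was 1.18 (SE 0.0974, with 3.92e-05 as the edgeR adjusted p). Both steps use libraries of the main comparison. Counts over a whole gene do not show which part of the transcript was made or whether protein was.

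In the gtf2i cross, which shares no library with the ird1 cross, Gtf2ird1 was at 97.9, 83.9 and 95.3 CPM in wt and at 126, 143 and 138 CPM in gtf2i. The groups did not overlap there either. The log2 fold change was 0.55 (SE 0.0915, with 0.15 as the edgeR adjusted p), with 1 mutant copy of the neighbouring gene. The heterozygous effects on Gtf2ird1 in the ird1 and gtf2i crosses differed by 0.06 (SE 0.131, unadjusted p 0.659 in edgeR over all 18 libraries).

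**Figure D1:**
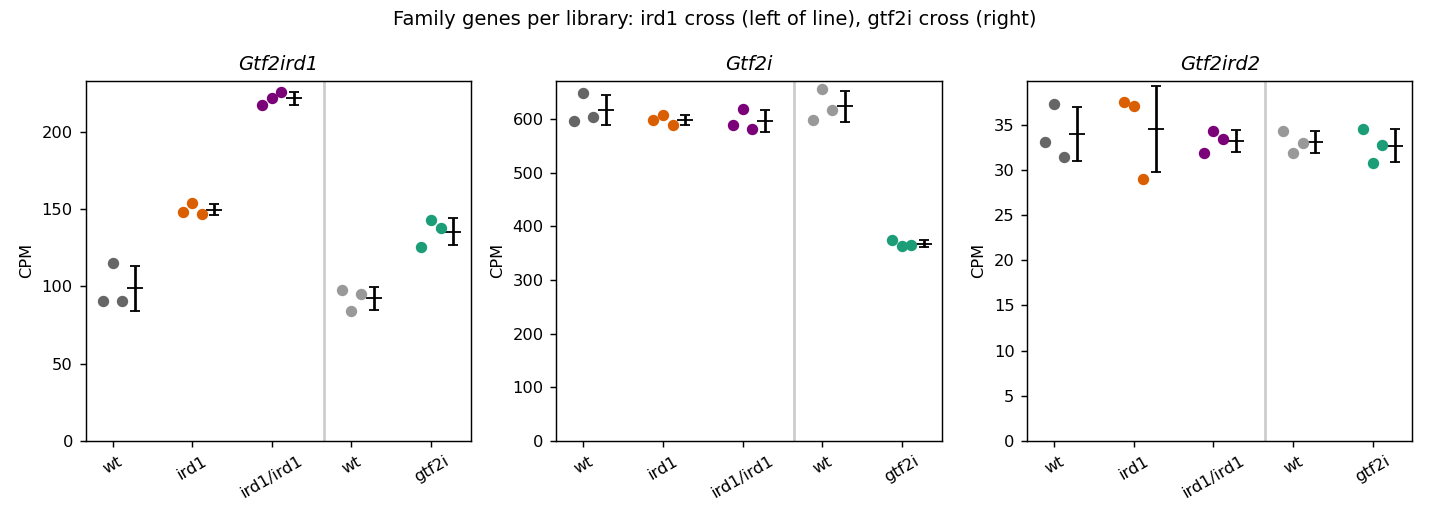
Level of Gtf2ird1, Gtf2i and Gtf2ird2 in CPM (vertical axes, from 0) in each library of the ird1 cross, left of the grey line, and in the wt and gtf2i libraries of the gtf2i cross, right of it. Points are libraries, and bars give the mean and SD of 3 libraries. Gtf2ird1 is lowest in wt, between 147 and 154 CPM in ird1 and highest in ird1/ird1, while Gtf2i is between 589 and 649 CPM in the wt and ird1 libraries of the ird1 cross and between 363 and 375 CPM in gtf2i.

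The other family genes did not pass the test either. Gtf2i (ENSMUSG00000060261) was at 596, 649 and 605 CPM in wt and at 599, 608 and 589 CPM in ird1. The ranges overlapped, and the log2 fold change was -0.04 (SE 0.0837, 95% interval -0.22 to 0.14, exact permutation p = 0.5). In gtf2i brains Gtf2i was at 375, 363 and 364 CPM, a log2 fold change of -0.76 (SE 0.0713, with 0.000501 as the edgeR adjusted p). The heterozygous effects on Gtf2i differed between the crosses by 0.72 (SE 0.0954, with 0.00291 as the edgeR adjusted p). Gtf2ird2, a family member whose sequence is close to that of Gtf2i, was at 34.0 ± 3.01 CPM in wt and 34.6 ± 4.78 CPM in ird1 (SD, n = 3 each), a difference of 0.04 on the log2 scale (95% interval -0.23 to 0.31, exact permutation p = 0.9). How reads that match both Gtf2i and Gtf2ird2 were counted is not given in the sources used here, so their levels carry that uncertainty.

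Among the other genes the edgeR test singled out none. This does not show that they were unchanged, since Gtf2ird1 did not pass the same test either. With edgeR 0 of 11708 genes (0%) were called, meaning past an adjusted p of 0.05, and the smallest adjusted p after Gtf2ird1 was 0.997. Below an unadjusted p of 0.05 lay 353 genes, 151 of them higher in ird1 (1.29%) and 202 lower (1.73%). DESeq2 called 1 gene, Gtf2ird1, and had 285 genes at an unadjusted p under 0.05. The 3 ird1 libraries lay entirely above the 3 wt libraries for 410 genes (3.5%) and entirely below them for 388 genes (3.31%).

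The sizes of the differences were bounded as well. The median absolute log2 fold change was 0.0906, and the 95th percentile was 0.310. The 95% interval of the fold change lay inside 2-fold in either direction for 11599 of 11708 genes, and inside 1.5-fold for 9999. These intervals are not adjusted for the number of genes. The fit had 6 residual degrees of freedom, a biological coefficient of variation of 10.0% and a median SE of 0.134 on the log2 scale.

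**Figure D2:**
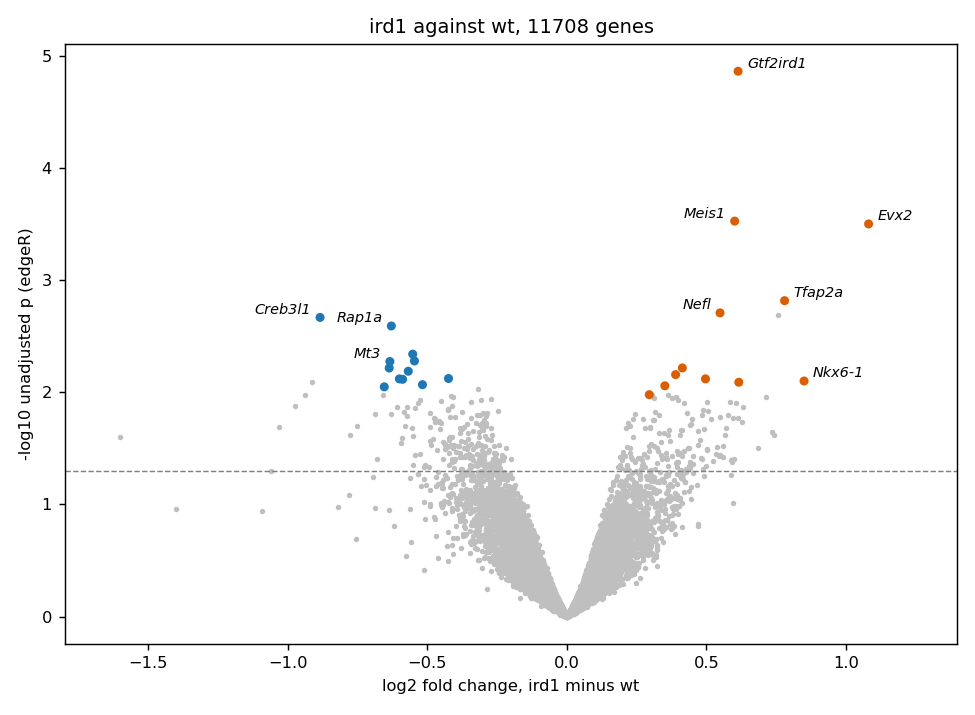
Log2 fold change of ird1 over wt (horizontal axis) against the -log10 of the unadjusted edgeR p (vertical axis) for 11708 genes. Coloured points are Gtf2ird1 and the 23 genes with the smallest p named in the text, orange where higher in ird1 and blue where lower; the dashed line marks an unadjusted p of 0.05. Gtf2ird1 is the point with the smallest p, and none passes the adjusted threshold.

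Of the 6 genes whose log2 fold change was beyond 1 in either direction, Evx2 was the 1 that was higher in ird1. The other 5, picked out after their values were seen, all had their highest level of the 6 libraries in wt replicate 2. Among them Rnu12, a small nuclear RNA of the minor spliceosome, was at 19.4, 208 and 109 CPM in wt and at 49.4, 18.4 and 38.7 CPM in ird1. Gm23935 was at 10609, 30473 and 12116 CPM in wt and at 9232, 7679 and 9086 CPM in ird1. Both were highest in the library that stands apart. Across 11700 genes with a listed length, the log2 fold change correlated with log10 transcript length at r = 0.27 in all libraries, 0.0847 without wt replicate 2 and 0.00762 within the libraries numbered 11610; genes are not independent replicates, and this is a description of the libraries.

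Since fewer than 10 genes were called, the genes with the smallest p whose groups did not overlap are described as leading genes, without a claim that they changed. Beside Gtf2ird1 there were 11 on the higher side and 12 on the lower side, each with an edgeR adjusted p of 0.997 and unadjusted p from 0.000298 to 0.0105. Their absolute log2 fold changes were between 0.30 and 1.08. Each of the 23 kept its sign between the libraries numbered 11902 and stayed under an unadjusted p of 0.05 without wt replicate 2, and 16 did so within the libraries numbered 11610. Of the 23, 22 stayed under 0.05 whichever compared library was left out. The leading genes were chosen for these same values, so their stability is no separate evidence.

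On the higher side Meis1, a homeodomain partner of Hox and Pbx proteins, was at 39.1, 34.3 and 34.0 CPM in wt and at 51.4, 64.2 and 48.5 CPM in ird1. Its log2 fold change was 0.60 (SE 0.129), and the ird1/ird1 libraries were at 48.3, 42.9 and 50.3 CPM, -0.21 from ird1 on the log2 scale (SE 0.123). Evx2, a homeobox gene at the end of the Hoxd cluster that is active in spinal and hindbrain interneurons, was among the lowest-expressed of the leading genes. It had 21, 15 and 18 counts in wt, which is 3.16, 5.00 and 3.48 CPM, and 60, 46 and 62 counts in ird1, which is 8.28, 6.52 and 8.62 CPM. Its log2 fold change was 1.08 (SE 0.233). A limma-voom fit with a weight for the quality of each library, added after the data were seen, called Evx2 with an adjusted p of 0.0257, where DESeq2 gave 0.999.

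Tfap2a, a regulator of the neural crest and of hindbrain interneurons, was at 17.2, 14.0 and 10.0 CPM in wt and at 27.3, 21.4 and 22.8 CPM in ird1, a log2 fold change of 0.78 (SE 0.202). Nkx6-1, which marks ventral progenitors of the hindbrain and spinal cord, was at 8.73, 9.33 and 8.12 CPM in wt and at 10.5, 24.5 and 12.0 CPM in ird1. Its difference of 0.85 on the log2 scale (SE 0.278) rested on ird1 replicate 2: without that library it was 0.37, with an unadjusted edgeR p of 0.0558. In ird1/ird1 Nkx6-1 was at 9.11, 10.4 and 8.77 CPM, within or just above the wt range. Ednrb, an endothelin receptor of neural crest and glial precursors, was at 59.0, 38.7 and 49.7 CPM in wt and at 68.7, 62.0 and 68.8 CPM in ird1, a log2 fold change of 0.41 (SE 0.130) that was 0.28 without wt replicate 2.

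Nefl, the light neurofilament subunit, was at 64.4, 75.0 and 58.7 CPM in wt and at 83.4, 123 and 81.1 CPM in ird1, a log2 fold change of 0.55 (SE 0.147). Without ird1 replicate 2, the highest library, it was 0.33. The medium subunit Nefm was at 52.4, 64.7 and 47.3 CPM in wt and at 71.5, 69.0 and 68.7 CPM in ird1, a log2 fold change of 0.36 (SE 0.125, unadjusted edgeR p 0.0106, and 0.0618 without wt replicate 3). The groups did not overlap for either subunit. Chgb, a granule protein of neurons and endocrine cells, was at 23.9, 26.3 and 27.1 CPM in wt and at 36.7, 31.4 and 32.7 CPM in ird1. The remaining genes on the higher side were Mospd1, Gm38534, Rabif, a guanine nucleotide exchange factor for Rab proteins, and Ufd1, which extracts ubiquitylated proteins for degradation, with log2 fold changes between 0.30 and 0.62.

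On the lower side Creb3l1, a membrane-bound transcription factor of the endoplasmic reticulum that promotes collagen secretion, had the largest difference among the leading genes. It was at 7.07, 6.00 and 5.80 CPM in wt and at 3.31, 3.54 and 3.48 CPM in ird1, from 47, 18 and 30 counts against 24, 25 and 25. Its log2 fold change was -0.88 (SE 0.240). The ird1/ird1 libraries, at 3.87, 6.34 and 6.49 CPM, reached from near the ird1 level into the wt range. Hic1, a transcriptional repressor of mesenchymal progenitors, was at 23.0, 33.0 and 19.7 CPM in wt and at 14.4, 15.9 and 17.1 CPM in ird1, a log2 fold change of -0.64 (SE 0.200) that was -0.45 without wt replicate 2. Adamts17, a secreted metalloprotease, had a log2 fold change of -0.65 (SE 0.218).

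Csf1r, the receptor that microglia and other macrophages need to survive, was at 36.7, 46.3 and 35.0 CPM in wt and at 28.2, 33.6 and 25.0 CPM in ird1. The log2 fold change was -0.42 (SE 0.138), and -0.32 without wt replicate 2. Icam2, an adhesion molecule of endothelium and blood cells, was at 7.83, 6.00 and 7.73 CPM in wt and at 4.42, 5.24 and 5.01 CPM in ird1, a log2 fold change of -0.59 (SE 0.192). In bulk tissue fewer cells of a type and less RNA per cell cannot be told apart.

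Mt3, a metal-binding protein of the brain, was at 46.6, 80.3 and 41.7 CPM in wt and at 32.0, 37.0 and 36.7 CPM in ird1. The high level in wt replicate 2 carried much of its log2 fold change of -0.63 (SE 0.195), which was -0.34 without that library. Rap1a, a small GTPase of cell adhesion, was at 13.8, 12.0 and 14.7 CPM in wt and at 10.5, 7.08 and 8.90 CPM in ird1, a log2 fold change of -0.63 (SE 0.175). Acad11, an acyl-CoA dehydrogenase, was at 9.18, 9.66 and 10.0 CPM in wt and at 6.21, 7.37 and 5.84 CPM in ird1, while the ird1/ird1 libraries, at 11.3, 9.12 and 9.47 CPM, were at the wt level or above. The rest of the lower side was Syce2, a protein of the meiotic synaptonemal complex, the predicted gene Gm19426, and the histone gene Hist1h2bp, whose near-identical copies make its count uncertain.

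Apobec3, a cytidine deaminase that restricts retroviruses, was at 7.83, 8.33 and 7.92 CPM in wt and at 4.83, 5.10 and 5.84 CPM in ird1, a log2 fold change of -0.60 (SE 0.195). In the gtf2i cross it lay the other way, at 6.01, 3.58 and 3.81 CPM in wt and at 11.2, 11.5 and 9.62 CPM in gtf2i, a log2 fold change of 1.26 (SE 0.213, with 0.15 as the edgeR adjusted p). The heterozygous effects differed by -1.87 (SE 0.282, with 0.00965 as the edgeR adjusted p). This difference lost its call without wt replicate 1 of the ird1 cross, or without replicate 2 or 3 of wt in the gtf2i cross. Apobec3 and Gtf2i were the 2 genes (0.0171% of 11708) whose heterozygous effect differed between the crosses past the adjusted threshold.

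**Figure D3:**
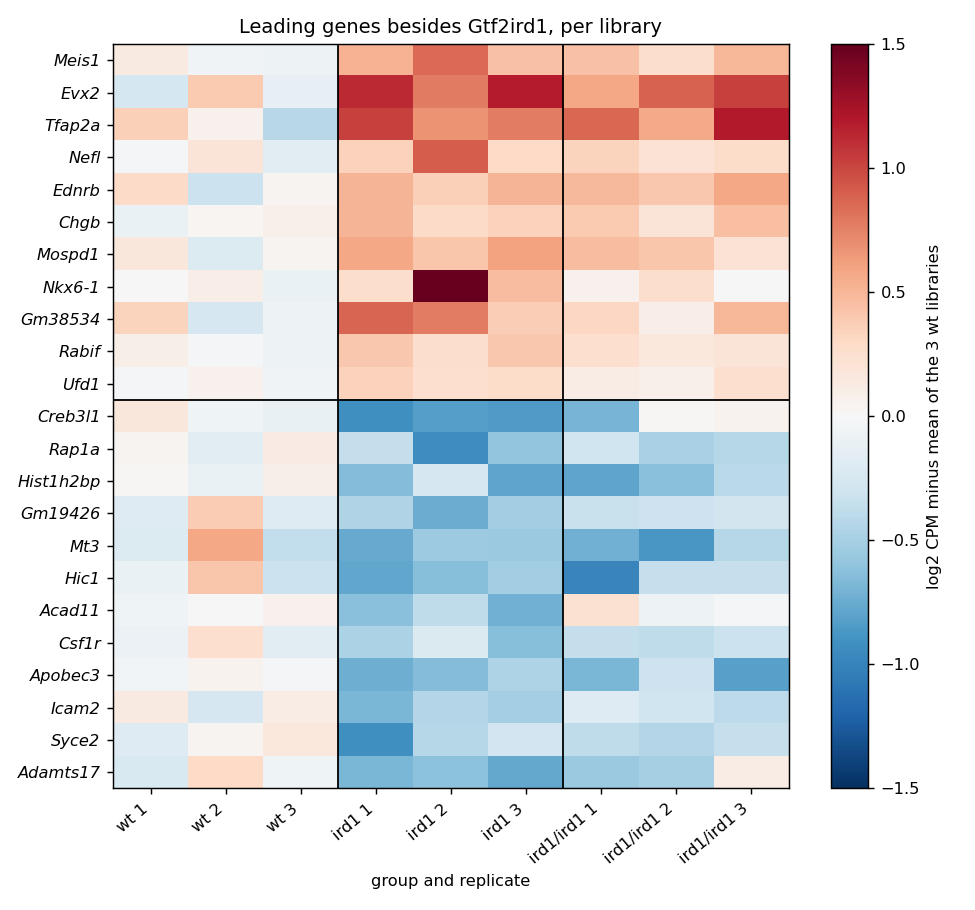
Log2 CPM of the 23 leading genes besides Gtf2ird1 (rows) in the 9 libraries of the ird1 cross (columns), as the difference from the mean of the 3 wt libraries, from blue (lower) to red (higher). The ird1 columns are red above and blue below the horizontal line because the genes were chosen so; ird1 replicate 2 is darkest for Nkx6-1, and the ird1/ird1 columns show Creb3l1 and Acad11 near the wt level in at least 1 library.

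Between ird1/ird1 and ird1 brains edgeR called 0 genes (0%), with 546 at an unadjusted p under 0.05, 333 of them higher in ird1/ird1. The smallest adjusted p was 0.242, that of Gtf2ird1, and DESeq2 called 1 gene, Gtf2ird1, with 408 at an unadjusted p under 0.05. The contrast shares the ird1 libraries with the main comparison.

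The gene lists were next read against all genes, of which 5721 had a log2 fold change above 0 and 5987 below it, with a median of -0.00. No listed gene was called. The list for the Williams region also holds genes beside the deleted segment, such as Auts2, Caln1, Hip1, Rhbdd2 and Por. Of its 24 genes found in the table, 8 lay above 0 and 16 below, with a median of -0.05. The median was 0.01 without wt replicate 2. Besides Gtf2ird1, the 1 gene of this list under an unadjusted p of 0.05 was Eln, which encodes elastin of vessel walls. It was at 18.1, 25.3 and 18.7 CPM in wt and at 12.0, 17.7 and 14.5 CPM in ird1, a log2 fold change of -0.46 (SE 0.172, unadjusted edgeR p 0.0181, but 0.0648 without wt replicate 2 and 0.0880 without ird1 replicate 1). Genes of this region with known roles in neurons did not pass the test: Limk1, a kinase of the actin cytoskeleton, differed by -0.02 (SE 0.102), Clip2, a microtubule linker, by -0.21 (SE 0.136), and Stx1a, a syntaxin of synaptic vesicle release, by -0.22 (SE 0.135). Without wt replicate 2 these differences were 0.09, 0.01 and -0.17.

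Of 13 genes reported in the literature as targets of the family, 6 lay above 0 and 7 below, with a median of -0.03. Of 19 partners of TFII-I in chromatin complexes 10 lay above 0, with a median of 0.01 and none under an unadjusted p of 0.05.

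The labelled tissue showed its defining markers, with 20 of 20 pan-neuronal and 19 of 20 radial glial genes in the table. Tubb3, the neuronal tubulin, was at 2272, 2601 and 2216 CPM in wt and at 2348, 2554 and 2091 CPM in ird1, and the radial glial filament Vim was at 914, 997 and 903 CPM in wt and at 961, 934 and 992 CPM in ird1. The list medians were -0.02 for 19 radial glial genes, -0.04 for 13 genes of intermediate progenitors, -0.01 for 20 genes of the ventral telencephalon and -0.06 for 20 of the dorsal telencephalon. Without wt replicate 2 the medians were -0.03 for radial glia, 0.013 for intermediate progenitors, -0.01 for the ventral and -0.14 for the dorsal telencephalon. With 1 library left out they ranged from -0.03 to 0.04 for radial glia and from -0.05 to 0.09 for the ventral telencephalon. The signs of these 2 medians thus depended on the libraries. The dorsal median was 0.02 without ird1 replicate 2 and 0.13 between the libraries numbered 11902, so its sign depended on which libraries were compared. In the dorsal list Nfix, a nuclear factor I gene of radial glial maturation, was at 417, 399.9 and 405 CPM in wt and at 263, 359.7 and 366 CPM in ird1, a log2 fold change of -0.31 (SE 0.116, unadjusted edgeR p 0.0186). Without ird1 replicate 1, its lowest library, this was -0.17 (unadjusted edgeR p 0.131).

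Transcription factors of midbrain and hindbrain lay above 0 for 21 of 24 genes, with a median of 0.17. Their summed level was 1764, 1581 and 1629 CPM in wt and 2111, 1618 and 1688 CPM in ird1, so that the groups overlapped and ird1 replicate 1 was alone at the top. The median was 0.11 without wt replicate 2, 0.40 between the libraries numbered 11902 and -0.06 within those numbered 11610, so its sign depended on which libraries were compared. Whether the share of midbrain and hindbrain in each dissection moved with this was not tested. The 1 gene of this list under an unadjusted p of 0.05 was Lhx1, at 75.5, 67.7 and 64.5 CPM in wt and at 89.6, 76.6 and 85.7 CPM in ird1 (log2 fold change 0.27, SE 0.103). Its unadjusted edgeR p was 0.0755 without wt replicate 3.

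Genes of Cajal-Retzius cells and Reelin signalling lay above 0 for 10 of 12, with a median of 0.11. The median was 0.15 without wt replicate 2 and 0.10 within the libraries numbered 11610, and ranged from 0.05 to 0.16 with 1 library left out. The genes of this list under an unadjusted p of 0.05 were Lhx1, Ebf3 and Nhlh2, transcription factors of early postmitotic neurons. They stand beside 1.29% of all genes in that direction. Ebf3 was at 178, 148 and 143 CPM in wt and at 222, 171 and 189.8 CPM in ird1, and Nhlh2 was at 57.6, 52.0 and 63.0 CPM in wt and at 79.6, 66.3 and 69.4 CPM in ird1. Ebf3 overlapped between the groups and Nhlh2 did not. None of the 3 stayed under 0.05 with each library left out in turn: the unadjusted edgeR p reached 0.124 for Ebf3 and 0.0651 for Nhlh2 without ird1 replicate 1, and, as given above, that of Lhx1 was over 0.05 without wt replicate 3. Reln itself, the secreted guidance protein of these cells, was at 438, 429 and 427 CPM in wt and at 423, 375 and 407 CPM in ird1, a log2 fold change of -0.10 (SE 0.0935), opposite in sign to the list's median.

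Markers of the cells that vessels and membranes bring into the brain lay mostly below 0. This held for 18 of 20 endothelial genes (median -0.13), 9 of 10 pericyte genes (-0.16) and 20 of 22 genes of mesenchyme and meninges (-0.16). Without wt replicate 2 these medians were -0.08, -0.15 and -0.11, and within the libraries numbered 11610 they were -0.02, -0.03 and -0.05. Between the libraries numbered 11902 they were -0.33, -0.43 and -0.40. From wt to ird1/ird1 they were -0.03, -0.03 and 0.08, so the mesenchyme median lay the other way there. The collagen gene Col3a1 was at 355, 598 and 342 CPM in wt and at 284, 330.5 and 422 CPM in ird1, with wt replicate 2 above every other library. Col6a1, also a collagen gene, was at 37.3, 42.3 and 36.7 CPM in wt and at 27.7, 28.8 and 34.6 CPM in ird1, a log2 fold change of -0.34 (SE 0.120, unadjusted edgeR p 0.0123, and 0.0575 without ird1 replicate 1). Within the libraries numbered 11610 it was -0.23, with an unadjusted edgeR p of 0.114.

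Of 16 microglial and macrophage markers listed, 7 were in the table, and 5 of these lay below 0. Their median of -0.29 was the lowest of the 39 lists, and it was -0.22 without wt replicate 2 and -0.17 within the libraries numbered 11610. Their summed level was 106, 110.3 and 97.8 CPM in wt and 85.6, 96.9 and 87.7 CPM in ird1, so that the lowest wt library lay just above the highest ird1 library. Members did not all lie the same way. C1qb, a complement component of microglia, was at 7.68, 8.00 and 8.12 CPM in wt and at 10.2, 10.9 and 9.87 CPM in ird1, while its partner C1qa was at 11.6, 11.0 and 9.08 CPM in wt and at 8.56, 9.77 and 7.51 CPM in ird1.

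All 13 erythroid genes in the table lay above 0, with a median of 0.19, 0.22 without wt replicate 2 and 0.35 within the libraries numbered 11610, but 0.00 between those numbered 11902. Their summed level was 3398, 4887 and 5303 CPM in wt and 4217, 6322 and 5417 CPM in ird1. The groups overlapped, since each held libraries with little and with much globin RNA. The embryonic globin Hbb-y, the most abundant of them, was at 2186, 3230 and 3478 CPM in wt and at 2742, 4120 and 3666 CPM in ird1 (log2 fold change 0.24, SE 0.189). Red blood cells carry these transcripts together, and the amount of blood left in each brain was not tested. Globin genes have close copies, so their single counts are uncertain.

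Genes of chromatin assembly and translation lay below 0 more often than above it. Of 23 histone genes, most of them replication-dependent, 22 lay below 0 and 9 of these were under an unadjusted p of 0.05, beside 1.73% of all genes, with a median of -0.24. Their summed level was 8737, 13231 and 9787 CPM in wt and 8343, 8875 and 8084 CPM in ird1. The median was -0.18 without wt replicate 2, -0.14 within the libraries numbered 11610 and -0.12 in the fit with the trend on transcript length removed, and with wt replicate 2 left out 2 genes were lower at an unadjusted p under 0.05, beside 137 of all 11708 genes in that fit. Hist1h1a, a linker histone, was at 798, 1505 and 924 CPM in wt and at 763, 794 and 736 CPM in ird1, a log2 fold change of -0.49 (SE 0.179) that was -0.18 without wt replicate 2. Cell cycle genes had a median of -0.02 over 28 genes, with 12 above 0 and none under an unadjusted p of 0.05. Their median was -0.08 without wt replicate 2 and -0.07 within the libraries numbered 11610, and it reached 0.05 with another library left out, so its sign depended on the libraries. Some core histone genes have near-identical copies, so that their single counts are uncertain.

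Of 38 ribosomal protein genes 31 lay below 0, with a median of -0.16 that was -0.08 without wt replicate 2 and -0.05 with the length trend removed. The 29 nuclear genes of oxidative phosphorylation had a median of -0.07, which was -0.01 without that library. The 7 mitochondrially encoded genes had a median of 0.19 in all libraries, 1.45 between the libraries numbered 11902 and -0.14 without wt replicate 2. mt-Co1, a subunit of cytochrome oxidase, was at 1711, 648 and 1818 CPM in wt and at 1732, 1618 and 1799 CPM in ird1. Its log2 fold change of 0.30 (SE 0.247) with all libraries was -0.05 within those numbered 11610.

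**Figure D4:**
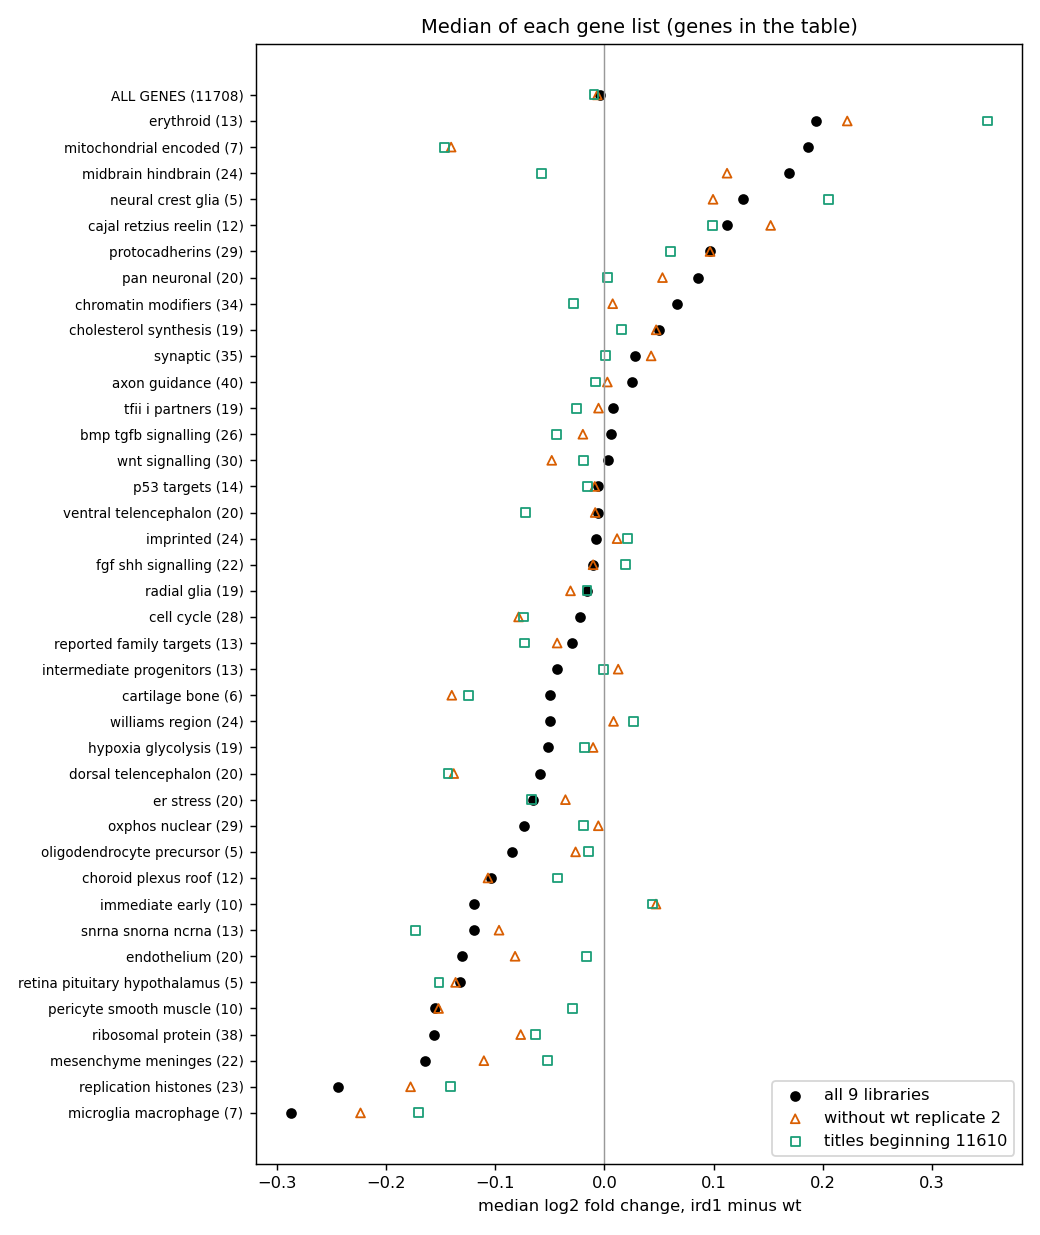
Median log2 fold change of ird1 over wt (horizontal axis) for each gene list, with the number of its genes in the table in parentheses, in all 9 libraries (black circles), without wt replicate 2 (orange triangles) and within the libraries numbered 11610 (green squares). The line marks 0. The medians of mitochondrially encoded genes and of midbrain and hindbrain factors cross 0 between these settings, while those of microglia and histone genes stay below it in all 3.

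Small lists of other tissue parts had medians away from 0 in either direction. These were 0.13 for 5 genes of neural crest and its glia (3 above 0), -0.13 for 5 genes of retina, pituitary and hypothalamus (4 below 0) and -0.10 for 12 of choroid plexus and roof plate (7 below 0). With 1 library left out they ranged from 0.03 to 0.18, from -0.19 to -0.09 and from -0.15 to -0.03. Without wt replicate 2 they were 0.10, -0.14 and -0.11. The median of 13 small and long noncoding RNAs was -0.12, and -0.10 without that library. The median of 10 immediate early genes was -0.12 with all libraries and 0.05 without it, so its sign depended on that library.

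The 20 pan-neuronal genes had a median of 0.09 with 14 above 0, and 0.00 within the libraries numbered 11610. Medians were 0.03 for 35 synaptic genes, 0.02 for 40 axon guidance genes, 0.00 for 30 genes of Wnt signalling, 0.01 for 26 of BMP and TGF-beta signalling and -0.01 for 22 of FGF and SHH signalling. Without wt replicate 2 they were 0.04, 0.00, -0.05, -0.02 and -0.01. With 1 library left out the synaptic median ranged from -0.03 to 0.07 and that of FGF and SHH signalling from -0.05 to 0.02. Their signs thus depended on the libraries. In the last list Fgf15, a growth factor of the diencephalon and hindbrain, was at 24.7, 18 and 24.7 CPM in wt and at 33.3, 33.4 and 25.4 CPM in ird1 (log2 fold change 0.42, SE 0.148, unadjusted edgeR p 0.0124, and 0.138 within the libraries numbered 11610). Slc17a7, a vesicular glutamate transporter, lay the other way, at 41.1, 41.7 and 40 CPM in wt and at 30.1, 36.1 and 33.9 CPM in ird1, a log2 fold change of -0.29 (SE 0.122). The 29 clustered protocadherins, adhesion molecules of neuronal identity with shared exons and hence uncertain counts, had a median of 0.10 with 20 above 0. With 1 library left out this median ranged from 0.04 to 0.18. For 34 chromatin modifiers the median was 0.07 with 25 above 0, and it was 0.01 without wt replicate 2. Medians of 24 imprinted genes, 14 p53 targets, 19 genes of cholesterol synthesis and 20 of endoplasmic reticulum stress were -0.01, -0.01, 0.05 and -0.06, and without wt replicate 2 they were 0.01, -0.01, 0.05 and -0.04. Cartilage and bone, oligodendrocyte precursors, and hypoxia and glycolysis had list medians of -0.05, -0.08 and -0.05, which were -0.14, -0.03 and -0.01 without that library.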

How the data were processed

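RNA was taken from E13.5 whole brains, depleted of ribosomal RNA and made into Illumina libraries, per the labels' protocols. Trimmomatic, STAR, HTSeq and the build mm10 are named in the submitters' processing notes; versions, annotation and strand setting are not given in the sources used here. The authors deposited unnormalized whole-number counts per gene for 11708 genes and 1 transcript length per gene. The smallest count in any of the 9 libraries of the ird1 cross was 10, so no deposited gene was silent in these libraries. For the 9 libraries of the cross, TMM factors (trimmed mean of M values) scaled the counts, filterByExpr dropped 0 genes, and the test was that of edgeR 4.0.16 (quasi-likelihood, groups as the only term, Benjamini-Hochberg adjustment over all genes) in R 4.3.3. The difference between crosses was fitted on all 18 libraries. Alternatives used DESeq2 1.42.0, limma 3.58.1, other filters and fits without single libraries. CPM are counts divided by the TMM-scaled library total; ± is the SD. Replicate pairs gave a chi-square of 2.9 to 17.7 for each degree of freedom, above sampling noise. Counting errors cover counting only, since amplified reads are not independent molecules.

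Named genes were the 3 family genes, called genes, the 12 genes each way with the smallest p, a mean of at least 5 CPM and no overlap, and for each list described the 2 most abundant members and up to 3 with the smallest unadjusted p under 0.05 and no overlap. Not every gene the rule names is reported here. Other named genes were added for their role after values were seen. The comparison and the lists (749 of 949 symbols were in the table; the skeletal muscle list had 0) were chosen with earlier results of these data known. Scripts were tested on simulated data.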

Additional observations from a re-analysis of the deposited data

Results flagged for a closer look

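Between the crosses the effect of 1 mutant copy differed past the adjusted threshold for Gtf2i, by 0.72 on the log2 scale (SE 0.0954, with 0.00291 as the edgeR adjusted p). Gtf2i was lower in all 3 gtf2i libraries than in their wt libraries, and overlapped between ird1 and wt.

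The effect also differed for Apobec3, by -1.87 (SE 0.282, with 0.00965 as the edgeR adjusted p), with lower levels in 3 of 3 ird1 libraries and higher levels in 3 of 3 gtf2i libraries than in the wt libraries of the same cross. Its wt level was 8.03 ± 0.269 CPM in the ird1 cross and 4.47 ± 1.34 CPM in the gtf2i cross (SD, n = 3 each).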

How the results depend on the processing

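The number of called genes was 1, Gtf2ird1, with DESeq2, with all 18 libraries in the fit, within the libraries numbered 11610 and without wt replicate 2 (from 0 to 1 when single libraries were left out), and 2, Gtf2ird1 and Evx2, with limma-voom and quality weights, an alternative chosen after seeing the data. The Gtf2ird1 log2 fold change was 0.61 with DESeq2, 0.61 with all 18 libraries, 0.73 within 11610 and 0.70 with limma-voom, and from 0.56 to 0.72 with 1 library left out. Genes at an unadjusted p under 0.05 numbered 234 where every library had at least 50 counts, 713 with limma-voom, and with 1 library left out, between 214 (ird1 replicate 1) and 694 (wt replicate 1); they were 637 without ird1 replicate 2 and 551 without wt replicate 3. With the title number as a replicate block 0 genes passed and 402 lay below an unadjusted p of 0.05; deviations of libraries sharing 11902 correlated at -0.160, 0.130 and 0.0324, so the number was not taken to pair them.

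Between ird1/ird1 and ird1 the called number was 1 with DESeq2, with only the 6 libraries compared, with all 18 and without wt replicate 2 (from 0 to 1 with 1 library left out). The difference between crosses kept from 1 to 2 genes with 1 library left out, and 2 with the replicate block. Gtf2ird2 changed sign with 1 library left out (lowest -0.028, without ird1 replicate 1; highest 0.15); it was -0.016 without ird1 replicate 2 and -0.012 without wt replicate 3. For Gtf2ird2 and the 23 leading genes besides Gtf2ird1, 489 of 493 values under alternatives kept their sign and side of the threshold. The 23 were chosen for groups that did not overlap and lay far from the adjusted threshold, so this tally is no evidence of stability. Gtf2ird1, whose call differed between alternatives, was not in it. Of 819 list medians 755 moved less than the replicate spread and 64 more. The causes were not tested. Counting error at the median gene was largest in wt replicate 2, at 9.28%.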

Other observations

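In all, 36 genes stayed under an unadjusted edgeR p of 0.05 in the fit of all libraries and in each of the 6 fits that left out 1 compared library, 17 of them higher in ird1 and 19 lower. Of these, 13 are not among the genes above with the smallest p, or are named there only from a list, and the examples that follow were chosen after their values were seen. Adcyap1, which encodes the neuropeptide PACAP, was at 9.03, 7.33 and 7.92 CPM in wt and at 12.6, 11.8 and 10.7 CPM in ird1, a log2 fold change of 0.50 (SE 0.176, with 0.997 as the edgeR adjusted p). Tmem108, a transmembrane protein of neurons, was at 21.1, 18 and 24 CPM in wt and at 28.2, 28.6 and 27.4 CPM in ird1. Mrpl24, a mitochondrial ribosomal protein, and Surf6, a nucleolar protein of ribosome assembly, lay lower, with log2 fold changes of -0.32 (SE 0.108) and -0.29 (SE 0.108).

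The labels give no sex for the embryos. Kdm5c, an X-linked histone demethylase gene known to escape X inactivation, was lowest in 1 library of each genotype: 269 CPM in wt replicate 1, 282 CPM in ird1 replicate 2 and 288 CPM in ird1/ird1 replicate 1, against 349 to 409 CPM in the other 6. The X-linked escape gene Eif2s3x was lowest in the same 3 libraries, at 9.33, 8.36 and 7.87 CPM against 13.6 to 20.3 CPM elsewhere. These genes were also picked after their values were seen.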
